A study of Mus musculus with 6 samples.

Results

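Amino acid transporter genes were followed in MII oocytes, the mature eggs arrested at the second metaphase, from mice of advanced reproductive age. The genes were chosen by name, as the Ensembl genes of the solute carrier families SLC1, SLC3, SLC6, SLC7, SLC36, SLC38 and SLC43, a rule that uses names and no level or fold. This gave 67 of the 53700 Ensembl genes listed, and 23 of the 67 passed the filter for the test, a mean of at least 1 FPKM over the 6 samples. All oocytes came from females of the outbred ICR stock aged 42 to 45 weeks that had received PMSG, the gonadotropin that stimulates follicle growth. For the 3 IVM samples, GV oocytes were freed of cumulus cells and then matured for 12 h in M16 medium. For the 3 IVO samples, the mice also received hCG, which triggers ovulation, and ovulated oocytes were taken from the oviduct 14 h later and then freed of cumulus cells with hyaluronidase. Each sample pooled 20 oocytes from 3 mice, so a value is the average of a pool and not of a single oocyte.

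Amino acid transporters move amino acids across the plasma membrane or the lysosomal membrane, some by coupling to sodium, chloride or protons and others by exchanging a molecule inside for a molecule outside. Several act in pairs: the SLC7 light chains, which hold the transport path, reach the membrane only when bound to an SLC3 heavy chain. In mouse oocytes the best known member is the glycine transporter GLYT1, encoded by Slc6a9, which becomes active as meiosis resumes and gathers glycine as an osmolyte that sets the volume of the cell, while other members supply cystine for glutathione or taurine and proline.

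FPKM counts the fragments of a gene per length of its transcript and per size of its library, which allows a rough comparison of levels between genes and between samples. It is a relative scale but not a fixed share, because its sum over all listed genes differed between the groups. The sum was 1.83e+06 to 2.11e+06 FPKM in IVM samples and 1.56e+06 to 1.64e+06 FPKM in IVO samples. Fewer oocytes holding an mRNA cannot be told apart from less of it in each oocyte. Low values stepped by the worth of 1 fragment, from which 16500000 to 19100000 fragments were inferred for the IVM samples and 17800000 to 18000000 for the IVO samples. For the 23 tested members, 3 fragments were worth 0.0174 to 0.177 FPKM, depending on transcript length and sample, a floor that covers counting error only. The inferred fragment length was 204 to 220 bases in IVM samples and 248 to 260 bases in IVO samples, and the median FPKM of all tested genes was 9.63 to 10.4 in IVM samples and 6.66 to 7.13 in IVO. All 12 oocyte markers were detected, with a summed FPKM of 22140 to 28222 in IVM samples and 21466 to 23705 in IVO. Most of these sums came from Oosp1 and Dppa3, at means of 12407 and 6459 FPKM, and neither was called. By the test described below, 5 of the 12 (41.7%) were lower in IVO, against 17.9% of all tested genes. These were Zp2 (log2FC -3.69), Zp3 (-3.13), Zp1 (-2.43), Nlrp5 and Padi6, and the median log2FC of the 12 was -0.92. Of 22 cumulus and granulosa cell markers, 5 reached a mean of 1 FPKM: Nr5a2, Cyp19a1 (mean 18.5 FPKM), Amhr2, Fshr (mean 11.4 FPKM) and Kitl. The summed FPKM of the markers was 71.7 to 92.5 in IVM samples and 51.0 to 78.0 in IVO, and Amh was listed at 0 in every sample. Of the 5, 1 marker, Nr5a2, was lower in IVO, a call kept in 8 of 17 alternatives and lost with median-ratio scaling (log2FC -0.73). Among markers with a mean below 1 FPKM, Tnfaip6, Has2, Ptx3 and Fst had every IVO value above every IVM value, and Inhbb had the reverse. The part of the fragment length, of the lower median and of these markers in the results below was not tested.

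IVO samples were tested against IVM samples with limma on log2(FPKM + 1), a scale on which changes of genes with low FPKM come out too small. Calls required a log2FC of 1 or more in size together with an adjusted p-value (Benjamini-Hochberg, 18818 tested genes) under 0.05. In this comparison 5 of the 23 tested members (21.7%) were lower in IVO and none was higher. Of all tested genes, 17.9% were called lower and 0.606% higher, so in this fit the share among the members was close to that of genes in general. In a separate fit of the Ensembl genes alone, 15.0% of them and 6 of the 23 members (26.1%) were called lower. That gap was not tested. No member had an unadjusted p-value under 0.05 in the higher direction. Without the threshold on the fold, 6 members (26.1%) were lower at an adjusted p-value under 0.05, against 21.5% of all tested genes. The 3 IVO values lay below the 3 IVM values in 9 of the 23 members (39.1%) and above them in 1, against 32.6% and 9.62% of all tested genes. The median log2FC was -0.32 over the members and -0.30 over all tested genes, and 12 of the 23 members lay below the median gene. The members are therefore described below gene by gene and by role, not as a set that moved apart from the rest.

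**Figure D1:**
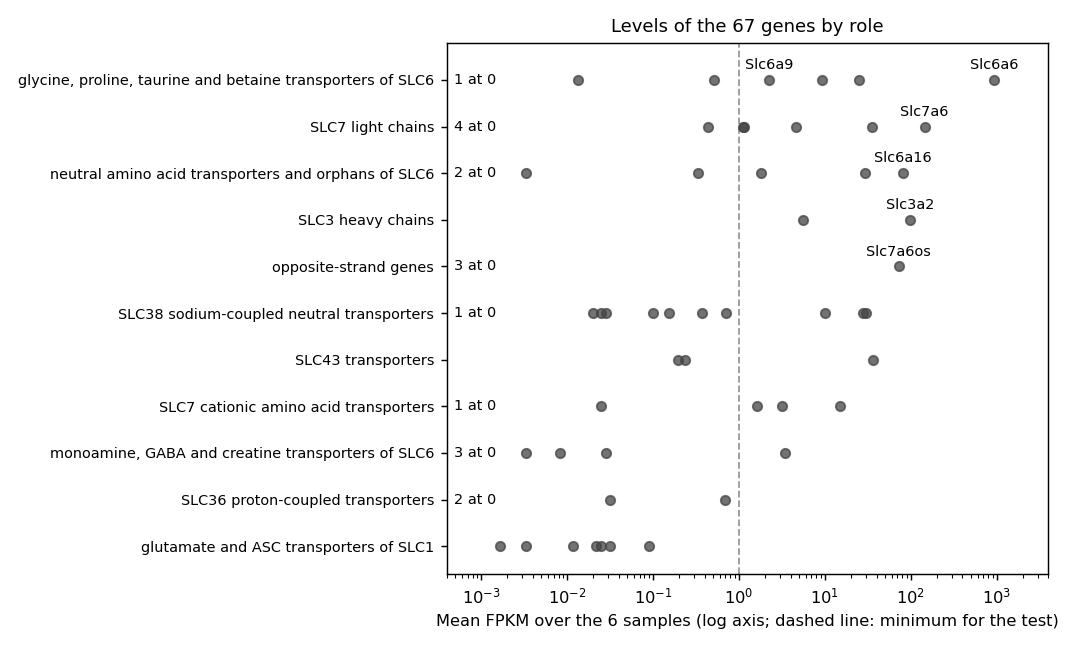
Mean FPKM over the 6 samples of each of the 67 genes on a log axis, by role, with the number listed at 0 in every sample at the left and the most abundant gene of 5 groups and Slc6a9 named. Slc6a6 stands alone near the top of the scale with a mean of 939 FPKM, and all genes of the SLC1 and SLC36 groups lie below the dashed line at 1 FPKM.

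The repertoire of the oocytes was narrow and uneven. Of the 67 genes, 17 were listed at 0 in all 6 samples and a further 27 had a mean below 1 FPKM. Between 21 and 24 genes reached 1 FPKM in an IVM sample and 21 or 22 in an IVO sample. The 67 genes together reached a sum of 1683, 2194 and 1859 FPKM in IVM and 1112, 1597 and 1057 FPKM in IVO samples. All IVO samples lay below all IVM samples, but the summed FPKM of all listed genes was lower in IVO samples as well. As a share of that whole sum the members overlapped between the groups. They made up 0.0803%, 0.104% and 0.102% of it in IVM and 0.0712%, 0.102% and 0.0643% in IVO samples. Slc6a6 alone supplied 54.6% to 65.9% of the members' sum in IVM and 48.5% to 67.4% in IVO samples. Without Slc6a6 the members' sum was 747 ± 17.0 FPKM in IVM and 541 ± 19.8 FPKM in IVO samples (mean ± SD, n = 3 each). The groups remained apart on this scale, which leaves the difference between the whole sums in place.

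The most abundant member, Slc6a6, encodes the taurine transporter TauT (GRCm39 chromosome 6, 91660573 to 91736047). It measured 919, 1447 and 1128 FPKM in IVM and 552, 1076 and 512 FPKM in IVO samples. IVO samples 1 and 3 were low, and IVO sample 2 lay within the IVM range. The gene ranked between 210 and 345 among all Ensembl genes in IVM samples and between 192 and 478 in IVO samples, so it was among the more abundant mRNAs of the oocyte in each pool. The log2FC was -0.77 (SE 0.32, limma adjusted p = 0.125), with a 95% interval from -1.51 to -0.02, and the gene was not called. Without IVO sample 2 the log2FC was -1.10 and the gene was called lower.

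Slc6a9, the gene of the volume-regulating glycine transporter, was far less abundant. It lies on GRCm39 chromosome 4 from 117691703 to 117732395. It measured 3.38, 2.07 and 1.56 FPKM in IVM and 3.40, 1.11 and 1.89 FPKM in IVO samples, which rest on about 56 to 105 and 37 to 113 inferred fragments. The groups overlapped, and the highest value of IVM and the highest of IVO were nearly equal. The log2FC was -0.12 (SE 0.35, limma adjusted p = 0.842). The 95% interval from -0.95 to 0.71 leaves room for a change of either sign, and the sign turned under other scalings, to 0.09 for median ratios. Of the exon bases of Slc6a9, 23.5% are shared with Ccdc24 on the opposite strand. Ccdc24 had 1.71, 0.79 and 2.00 FPKM in IVM and 1.18, 1.16 and 1.98 FPKM in IVO samples. A smaller stretch is shared with B4galt2 on the opposite strand, at 11.2, 5.49 and 11.0 FPKM in IVM and 1.15, 1.34 and 2.69 FPKM in IVO samples. The library kit does not mark strand, so reads in the shared stretches cannot be assigned to a single gene with certainty. In the same samples the FPKM of Slc6a6 was 162-fold to 969.7-fold that of Slc6a9.

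The other members that carry glycine, proline or related solutes included a pair of neighbouring paralogs on chromosome 9, Slc6a20b and Slc6a20a, which belong to the imino acid transporters. Slc6a20b had 31.8, 25.4 and 22.6 FPKM in IVM and 26.0, 19.96 and 25.6 FPKM in IVO samples, and the groups overlapped (log2FC -0.14, SE 0.22, limma adjusted p = 0.672). Slc6a20a had 9.23 ± 1.68 FPKM in IVM and 9.29 ± 2.101 FPKM in IVO samples (mean ± SD, n = 3 each), with a 95% interval of the log2FC from -0.55 to 0.56. Reads from such close copies can be split between them when they are counted, so the level of each is less certain than their order. The order held in every pool: Slc6a20b was 2.02-fold to 3.82-fold above Slc6a20a in IVM and 2.19-fold to 3.31-fold in IVO samples. Slc6a20b was also 7.66-fold to 18.0-fold above Slc6a9 on the FPKM scale. For Slc6a20b, 21.3% of the exon bases are shared with Sacm1l on the opposite strand. Of the remaining genes of this group, the proline transporter gene Slc6a7 had 0.21 to 0.84 FPKM, Slc6a5, the second glycine transporter gene, had at most 0.04 FPKM, and Slc6a12, the betaine and GABA transporter gene, was listed at 0 throughout.

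**Figure D2:**
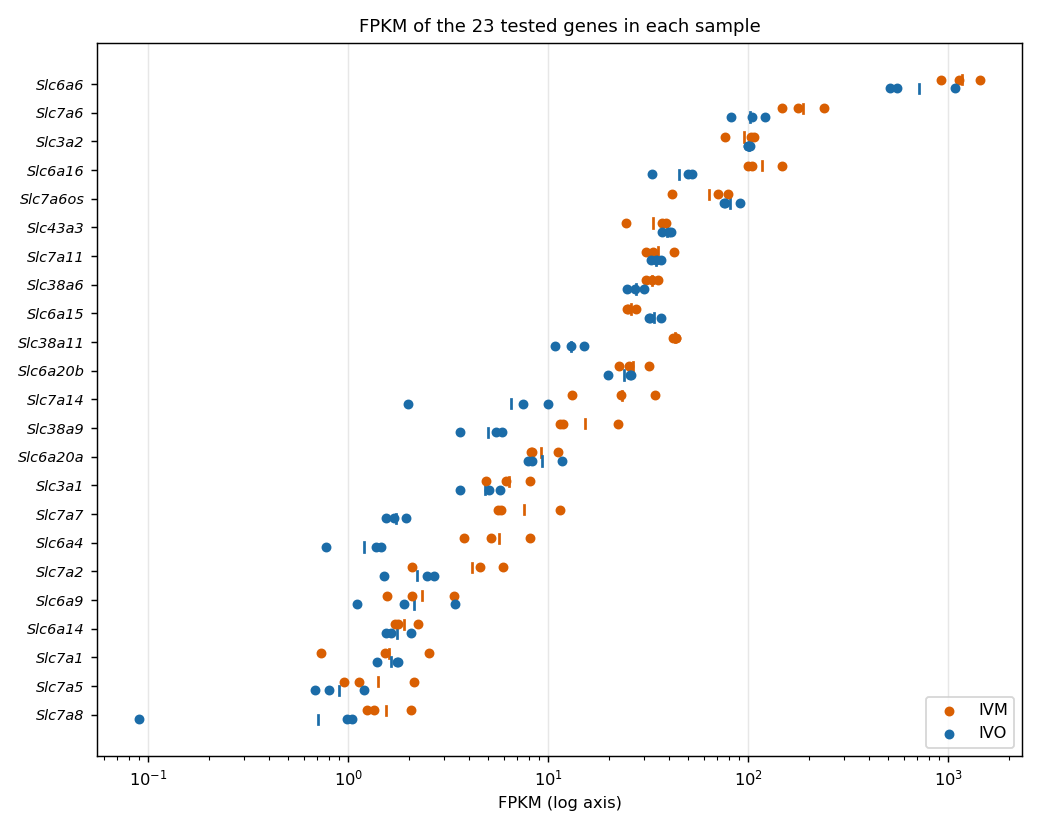
FPKM of the 23 tested genes in each of the 6 samples on a log axis, with IVM in orange, IVO in blue and a vertical tick at each group mean. The 3 points of each group separate without overlap in 10 genes, from Slc38a11, at 42.0 to 43.5 FPKM in IVM and 10.8 to 15.0 FPKM in IVO samples, to Slc7a8 at about 1 FPKM.

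Among the sodium-coupled neutral amino acid transporters of SLC38, 3 of 11 genes were tested, and in each the IVO values lay below the IVM values. The largest and most even difference was in Slc38a11, an orphan member of the family (chromosome 2, 65144007 to 65194427). It measured 43.5, 42.0 and 43.4 FPKM in IVM and 13.0, 10.8 and 15.0 FPKM in IVO samples. The IVM samples differed from each other by less than 2 FPKM, and every IVO sample was far below them. The log2FC was -1.67 (SE 0.19, limma adjusted p = 0.00216), and the mean in IVO was 0.301 of that in IVM. Slc38a11 was the only member called lower under all 17 alternatives run for it, with adjusted p-values from 0.00125 to 0.0411.

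Slc38a9 encodes a lysosomal arginine sensor that signals to mTORC1, the kinase complex that couples growth to nutrients (chromosome 13, 112797159 to 112875283). It measured 22.3, 11.4 and 11.8 FPKM in IVM and 5.5, 5.87 and 3.61 FPKM in IVO samples. IVM sample 1 stood above the other IVM samples, and no IVO sample reached the lowest of them. The log2FC was -1.39 (SE 0.31, limma adjusted p = 0.0198). Without IVM sample 1 it was -1.10 and without IVO sample 3 it was -1.21, and the gene was called in neither case. Slc38a6 was the steadiest of the 3, with 33.0, 35.6 and 30.9 FPKM in IVM and 29.96, 24.8 and 27.2 FPKM in IVO samples. The groups did not overlap, yet the log2FC of -0.27 (SE 0.18, limma adjusted p = 0.32) was close to that of the median gene, and its sign turned with median-ratio scaling to 0.04. The SLC38 genes together summed to 92.9 ± 7.02 FPKM in IVM and 46.4 ± 3.60 FPKM in IVO samples (mean ± SD, n = 3 each). The system A genes of the family, which carry small neutral amino acids such as alanine, were nearly silent: Slc38a1 had 0.02 to 0.24 FPKM, Slc38a2 was listed at 0 in all IVM samples and at 0.02 to 0.09 FPKM in IVO samples, and Slc38a4 had at most 0.07 FPKM.

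Of the heteromeric exchangers, 2 heavy chains and 5 light chains were tested, and 1 light chain was called lower. Slc3a2 encodes CD98hc, the heavy chain of most SLC7 light chains (chromosome 19, 8684245 to 8701108). It measured 107, 76.9 and 103 FPKM in IVM and 99.9, 102 and 99.8 FPKM in IVO samples. IVM sample 2 was low, and the IVO samples were nearly equal. The log2FC was 0.09 (SE 0.19, limma adjusted p = 0.781), with a 95% interval from -0.36 to 0.53. Of its exon bases, 15.9% are shared with Snhg1 on the opposite strand, which had 9.12 to 16.0 FPKM in IVM and 1.26 to 6.92 FPKM in IVO samples. The other heavy chain, Slc3a1, which pairs with Slc7a9 in cystine and cationic amino acid uptake, had 6.37 ± 1.62 FPKM in IVM and 4.81 ± 1.08 FPKM in IVO samples (mean ± SD, n = 3 each) (log2FC -0.34, SE 0.26, limma adjusted p = 0.396). Of the exon bases of Slc3a1, 26.8% are shared with Prepl on the opposite strand. Prepl had 7.11, 10.8 and 13.8 FPKM in IVM and 10.7, 8.61 and 5.94 FPKM in IVO samples.

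The most abundant light chain was Slc7a6, encoding y+LAT2, which exports cationic amino acids in exchange for neutral ones and sodium (chromosome 8, 106895139 to 106925346). It measured 177, 238 and 148 FPKM in IVM and 121, 104 and 81.5 FPKM in IVO samples. Every IVO sample was below every IVM sample. The log2FC was -0.86 (SE 0.24, limma adjusted p = 0.0406), so the adjusted p-value passed and the fold did not. Without IVM sample 3 the log2FC was -1.02 and the gene was called. Relative to Slc3a2 in the same sample, Slc7a6 stood at 1.65, 3.09 and 1.44 in IVM and at 1.21, 1.02 and 0.817 in IVO samples, a ratio that does not depend on the scaling of the library. The IVO ratios were all below the IVM ratios.

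Its close relative Slc7a7, encoding y+LAT1, was called lower (chromosome 14, 54606895 to 54655603). It measured 11.4, 5.61 and 5.81 FPKM in IVM and 1.54, 1.69 and 1.94 FPKM in IVO samples. IVM sample 1 was high, and the IVO samples lay close together well below all IVM samples. The log2FC was -1.60 (SE 0.30, limma adjusted p = 0.0103), the mean in IVO was 0.227 of that in IVM, and the gene was called in each fit that left out a sample. The IVO values rest on about 50 to 63 inferred fragments, and the 10.4% of exon bases that Slc7a7 shares are with Oxa1l, at 1.06 to 1.85 FPKM in IVM and 1.63 to 3.19 FPKM in IVO samples.

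By contrast, Slc7a11, encoding the light chain of the cystine and glutamate exchanger xCT, had 33.2, 30.7 and 42.4 FPKM in IVM and 34.6, 32.5 and 36.8 FPKM in IVO samples. The groups overlapped almost fully. The log2FC was -0.02 (SE 0.20, limma adjusted p = 0.955), with a 95% interval from -0.48 to 0.44, and its sign turned with median-ratio scaling to 0.30. Its ratio to Slc3a2 was 0.374 ± 0.0559 in IVM and 0.345 ± 0.0243 in IVO samples (mean ± SD, n = 3 each). The light chains for large neutral amino acids were scarce: Slc7a5, encoding LAT1, had 0.95 to 2.12 FPKM in IVM and 0.68 to 1.20 FPKM in IVO samples, and Slc7a8, encoding LAT2, had 1.24 to 2.06 and 0.09 to 1.04 FPKM. Every IVO value of Slc7a8 lay below every IVM value, with a log2FC of -0.62 (SE 0.34, limma adjusted p = 0.232), which was -0.32 without IVO sample 3, the value of 0.09 FPKM. Slc7a9, below the filter and not tested, had 0.46 to 0.93 FPKM in IVM and 0.15 to 0.29 FPKM in IVO samples, where 3 fragments were worth 0.0943 to 0.110 FPKM.

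The cationic amino acid transporters of SLC7, which take up arginine and lysine without a heavy chain, were led by Slc7a14, a member of uncertain substrate. It measured 23.2, 13.1 and 34.2 FPKM in IVM and 1.98, 7.46 and 9.99 FPKM in IVO samples. The samples differed widely within each group, and the groups did not overlap. The log2FC of -1.81 was the most negative of the 23 members, but with an SE of 0.54 the limma adjusted p was 0.0510 and the gene was not called. It was called without IVO sample 3, over Ensembl genes only and with a mean of at least 5 FPKM as the filter. Slc7a2, encoding CAT2, had 2.08 to 5.91 FPKM in IVM and 1.51 to 2.68 FPKM in IVO samples (log2FC -0.63, SE 0.35, limma adjusted p = 0.245), and its log2FC was -0.96 without IVM sample 2 and -0.38 without IVM sample 3. Slc7a1, encoding CAT1, had 0.73 to 2.52 and 1.39 to 1.78 FPKM, with a 95% interval of the log2FC from -0.66 to 0.83. Slc7a3, encoding CAT3, was detected in IVM sample 2 alone, at 0.15 FPKM.

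**Figure D3:**
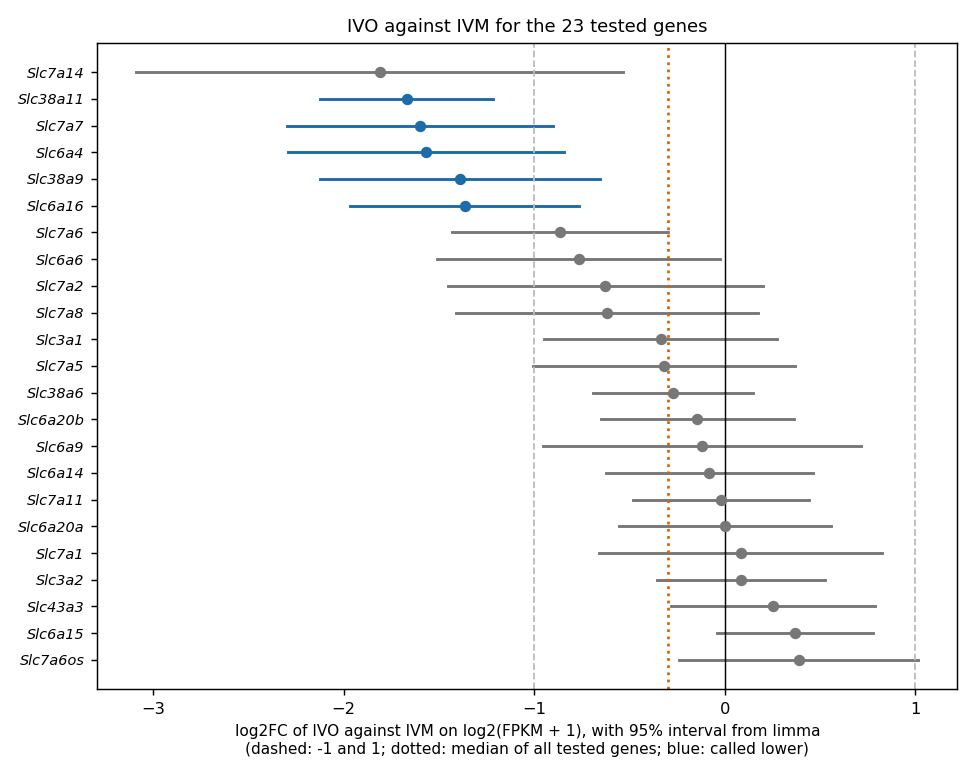
Log2FC of IVO against IVM on the log2(FPKM + 1) scale with its 95% interval from limma for the 23 tested genes, with the 5 called lower in blue, a dotted line at the median of all tested genes (-0.30) and dashed lines at -1 and 1. The estimates run from -1.81 in Slc7a14, whose interval is the widest, to 0.39 in Slc7a6os, and the interval of every gene from Slc7a2 downwards includes 0.

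Of the SLC6 genes for neutral amino acids and the orphans beside them, Slc6a16 was the most abundant. It encodes an orphan transporter (chromosome 7, 44890499 to 44922791). It measured 105, 148 and 99.6 FPKM in IVM and 50.01, 33.0 and 52.4 FPKM in IVO samples. Even the highest IVO sample was far below the lowest IVM sample. The log2FC was -1.37 (SE 0.26, limma adjusted p = 0.0106), and the gene was called in each fit that left out a sample. With quantile normalization, the log2FC was -0.87 and the call was lost.

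Slc6a15, encoding B0AT2, a sodium-dependent carrier of branched-chain amino acids and proline, ran the other way. It measured 25.2, 24.8 and 27.5 FPKM in IVM and 32.3, 36.6 and 31.9 FPKM in IVO samples. It was the single tested member in which every IVO sample was above every IVM sample. The log2FC was 0.37 (SE 0.17, limma adjusted p = 0.175), with a 95% interval from -0.04 to 0.78, and the gene was not called. Slc6a14, which carries both neutral and cationic amino acids, had 1.71 to 2.23 FPKM in IVM and 1.55 to 2.05 FPKM in IVO samples (log2FC -0.08, SE 0.23, limma adjusted p = 0.834). Slc6a21, near Slc6a16 on chromosome 7, had at most 0.59 FPKM, and Slc6a17 and Slc6a18 were listed at 0.

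The name rule also took in genes of other substrates. Slc6a4, the serotonin transporter gene (chromosome 11, 76888903 to 76923169), had 8.13, 3.77 and 5.18 FPKM in IVM and 1.38, 1.45 and 0.77 FPKM in IVO samples. All IVO samples were well below all IVM samples, on about 34 to 64 inferred fragments against 182 to 336. The log2FC was -1.57 (SE 0.31, limma adjusted p = 0.0123), and the gene was called in each fit that left out a sample. No other gene of the monoamine, GABA and creatine transporters exceeded 0.12 FPKM in any sample, and the creatine transporter gene Slc6a8 was listed at 0. Slc43a3, which carries purine nucleobases, had 37.2, 24.4 and 38.9 FPKM in IVM and 40.01, 40.9 and 37.0 FPKM in IVO samples (log2FC 0.25, SE 0.23, limma adjusted p = 0.470). Slc7a6os, named for its place beside Slc7a6 on the other strand and not a transporter gene, had 70.9, 41.6 and 78.7 FPKM in IVM and 75.7, 76.7 and 90.9 FPKM in IVO samples (log2FC 0.39, SE 0.27, limma adjusted p = 0.342). In Slc3a2, Slc43a3 and Slc7a6os alike, IVM sample 2 was the low sample and widened the spread of its group.

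The families of excitatory and proton-coupled transport were close to empty. The 7 genes of SLC1, which take up glutamate, aspartate and small neutral amino acids, summed to 0.14 to 0.34 FPKM in IVM and 0.06 to 0.34 FPKM in IVO samples, and the best detected was Slc1a1 at 0.01 to 0.17 FPKM. Of SLC36, the proton-coupled transporters of small amino acids, Slc36a1 had 0.38 to 0.98 FPKM in IVM and 0.52 to 0.86 FPKM in IVO samples, and Slc36a2 and Slc36a3 were listed at 0. The LAT3 and LAT4 genes, Slc43a1 and Slc43a2, had 0.10 to 0.46 FPKM. A listing at 0 may be a failed estimate as well as an absent mRNA, because genes that most cells use also had low values here: Uqcrc1 had a mean of 0.337 FPKM and Tuba1b was listed at 0 in IVO sample 1. The SLC1, SLC36, Slc43a1 and Slc43a2 genes lay below the filter of 1 FPKM, so a difference between the groups was not tested for them.

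How many genes were called, over all genes, depended on how the libraries were scaled. Median-ratio scaling brings the median log2FC of all tested genes from -0.30 to -0.04, and under it 11.2% of all tested genes and 5 of the 23 members were called lower. The members called were Slc38a11, Slc38a9, Slc7a7, Slc6a4 and Slc6a16, as with FPKM as deposited. Of the calls over all genes, 84.4% were in the lower direction with this scaling and 96.7% with FPKM as deposited. With quantile normalization the median log2FC of all tested genes was 0.17, 59.0% of their calls were in the lower direction, and 8.40% of all tested genes and 3 members were called lower, Slc38a11, Slc7a7 and Slc6a4. With each library scaled to an equal sum, 11.3% of all tested genes and 4 of the 5 members were called lower, without Slc38a9. With no filter on low values, which brings all 60193 listed genes into the adjustment, 1.72% of them were called lower and, of the members, Slc38a11 alone. With the trend of each library with gene length removed, the same 5 members were called as with FPKM as deposited, against 8.03% of all tested genes. Under median-ratio scaling and with the length trend removed, the 5 of 23 members (21.7%) thus stood further above the share of all genes than with FPKM as deposited, a gap that was not tested. The gap varied over the other settings. Over Ensembl genes only, 6 of the 23 members were called lower, beside 15.0% of those genes. Without IVO sample 2 it was also 6 of the 23, beside 13.7% of all tested genes. The settings that follow left the members close to the share of all genes. With no filter, 1 of the 67 members was called lower, beside 1.72% of all listed genes. With the length trend removed and samples blocked by replicate number, it was 1 of the 23, beside 3.94%. The shares of all genes include assembled loci, while all members are Ensembl genes.

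**Figure D4:**
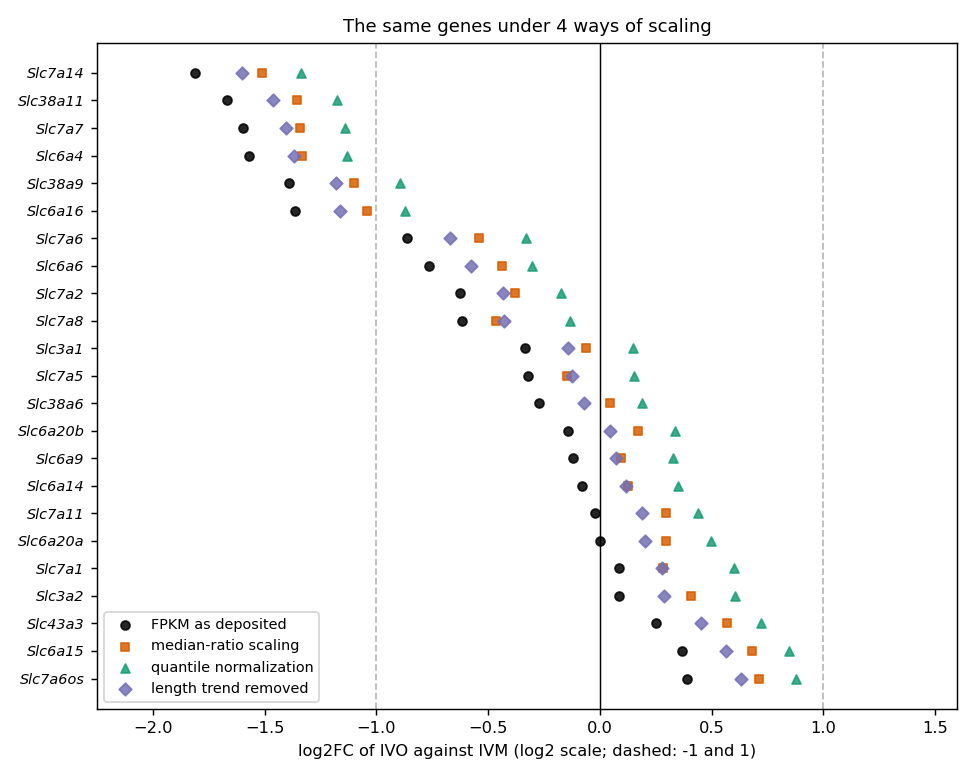
Log2FC of IVO against IVM for the 23 tested genes with FPKM as deposited (black circles), median-ratio scaling (orange squares), quantile normalization (green triangles) and the length trend removed (purple diamonds), with dashed lines at -1 and 1. Each gene moves upwards with the other scalings. Slc7a14, Slc38a11, Slc7a7 and Slc6a4 stay below -1 in all of them, at -1.34, -1.18, -1.14 and -1.13 with quantile normalization.

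The 3′ ends of the transcripts were read from the GENCODE annotation of GRCm39, because the cDNA of these libraries was primed on poly(A) tails and the tail length of stored oocyte mRNAs is known to change during maturation through cytoplasmic polyadenylation elements (CPEs). The sense strand of the last 50 bases of each canonical transcript was searched for the poly(A) signal AATAAA or ATTAAA, and the 100 bases before the signal for a CPE, TTTTAT or TTTTAAT, which could not overlap the signal. The 30 bases that end with the signal follow, with the signal in capitals, for the 5 members called lower, for Slc6a6 as the most abundant member, and for a pair of members with a CPE right before the signal and values that overlapped between the groups.
Slc38a11, chr2:65144022-65144051, minus strand: aaatgcagaataacagtgtggccaAATAAA
Slc38a9, chr13:112875236-112875265, plus strand: tgtgttgttttgtgaagtaaatgtAATAAA
Slc7a7, chr14:54606915-54606944, minus strand: acaaaactgtcacagatgcaaaacAATAAA
Slc6a16, chr7:44922742-44922771, plus strand: cggggaagggtggggctgctggctAATAAA
Slc6a4, chr11:76923124-76923153, plus strand: taaatggcctctaatttttcttacATTAAA
Slc6a6, chr6:91735994-91736023, plus strand: tttataatcaccttgtaacacaacAATAAA
Slc43a3, chr2:84788805-84788834, plus strand: ctctagggaatacttttatacaatAATAAA
Slc6a20a, chr9:123465205-123465234, minus strand: aatgtctttattcttttttatcatAATAAA

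A poly(A) signal was found in 18 of the 23 tested members (78.3%) and in 75.8% of 10344 tested protein-coding genes. A CPE preceded it in 6 of these 18 (33.3%), against 18.8% of the tested protein-coding genes with a signal. In Slc43a3 the CPE TTTTAT ends 5 bases before the signal and in Slc6a20a it ends 3 bases before, and the other members with a CPE were Slc6a14, Slc6a15, Slc7a8 and Slc7a14. None of these 6 was called lower, with a median log2FC of -0.04, and all 5 called members were among the 12 with a signal and no CPE, with a median log2FC of -0.81. Over all tested protein-coding genes, 8.30% of the 1470 with a CPE before the signal and 14.8% of the 6369 with a signal and no CPE were called lower, with median log2FCs of -0.0097 and -0.17. Slc7a14, which holds the CPE TTTTAAT 47 bases before its signal, had the most negative log2FC of all members. These counts are a description of few genes, and the difference by CPE was not tested. No signal was found within this window in Slc6a9, Slc6a20b, Slc3a1, Slc7a2 and Slc7a5.

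Genes that act around amino acid transport were counted in the same fit, and each count stands against the 17.9% of all tested genes called lower and the 0.606% called higher. Of 35 genes of amino acid sensing by mTORC1, 24 were tested, 6 (25%) were lower in IVO and none was higher, and the median log2FC was 0.07. The lower genes included parts of the lysosomal scaffold on which Slc38a9 also acts. Lamtor1, the membrane anchor of the Ragulator complex, had 135.1 ± 50.4 FPKM in IVM and 27.2 ± 2.28 FPKM in IVO samples (mean ± SD, n = 3 each) (log2FC -2.20, limma adjusted p = 0.00427). Rragd, a Rag GTPase, had 205.7, 199 and 173 FPKM in IVM and 46.3, 52.9 and 55.2 FPKM in IVO samples (log2FC -1.88, limma adjusted p = 0.00124). Tsc2, a brake on mTORC1, also fell (log2FC -1.84, limma adjusted p = 0.0113), as did Wdr59, Lamtor5 and Lamtor4. Rragc, another Rag GTPase, had 179 to 238 FPKM in IVM and 252 to 271 FPKM in IVO samples, and Lamtor3, another Ragulator subunit, had 160 to 247 and 261 to 268 FPKM, and neither was called under any setting. With median-ratio scaling, under which 11.2% of all tested genes were lower, 3 of the 24 genes were lower, Lamtor1, Rragd and Tsc2, while the calls of Wdr59 (-0.91), Lamtor5 (-0.85) and Lamtor4 (-0.87) were lost on the fold. Lamtor5 and Lamtor4 were also not called without IVM sample 1.

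Of 21 genes of the amino acid starvation response, 14 of 22 identifiers were tested, as Ddit3 is listed under 2. Of these, 3 (21.4%) were lower and 1 higher in IVO. The lower genes were Atf4, the transcription factor of the response, with 29.4, 16.3 and 25.7 FPKM in IVM and 12.3, 10.4 and 8.23 FPKM in IVO samples (log2FC -1.11, limma adjusted p = 0.0275), and its targets Asns, for asparagine synthesis (log2FC -1.15, limma adjusted p = 0.0255), and Phgdh, for serine synthesis (log2FC -1.02, limma adjusted p = 0.0212). The higher gene was Eif2s1, encoding the translation factor subunit on which the response acts, with 12.3, 17.1 and 16.2 FPKM in IVM and 40.1, 45.2 and 31.1 FPKM in IVO samples (log2FC 1.296, limma adjusted p = 0.00855). With median-ratio scaling no gene of this list was called lower and 2 were called higher, and the log2FC was -0.80 for Atf4, -0.87 for Asns and -0.77 for Phgdh. Of the 6 fits that left out a sample, 2 called Atf4, 1 called Asns and 1 called Phgdh, while all 6 called Eif2s1.

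Cell volume regulation is the setting in which Slc6a9 works. Of its 18 genes, 15 were tested and 1 (6.67%) was lower, the potassium-chloride cotransporter gene Slc12a4, with 8.04, 24.2 and 10.3 FPKM in IVM and 2.82, 1.47 and 0.43 FPKM in IVO samples (log2FC -2.52, limma adjusted p = 0.0120). The median log2FC was -0.05. Of 12 genes of glycine cleavage and glutathione synthesis, 7 were tested and 1 (14.3%) was lower, Gldc, encoding the glycine decarboxylase of mitochondria. It had 129, 72.4 and 103 FPKM in IVM and 25.7, 0.24 and 9.34 FPKM in IVO samples (log2FC -3.83, SE 1.0, limma adjusted p = 0.0329). The IVO samples differed widely from each other, and the gene was called in 2 of the 6 fits that left out a sample. With median-ratio scaling it was not called, although the log2FC of -3.55 was nearly as large. Of 13 amino acid transporter genes of other families, 9 were tested and 1 (11.1%) was lower, Slc66a1, which exports cationic amino acids from lysosomes, with 10.6 ± 1.32 FPKM in IVM and 3.15 ± 0.70 FPKM in IVO samples (mean ± SD, n = 3 each) (log2FC -1.49, limma adjusted p = 0.00510).

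**Figure D5:**
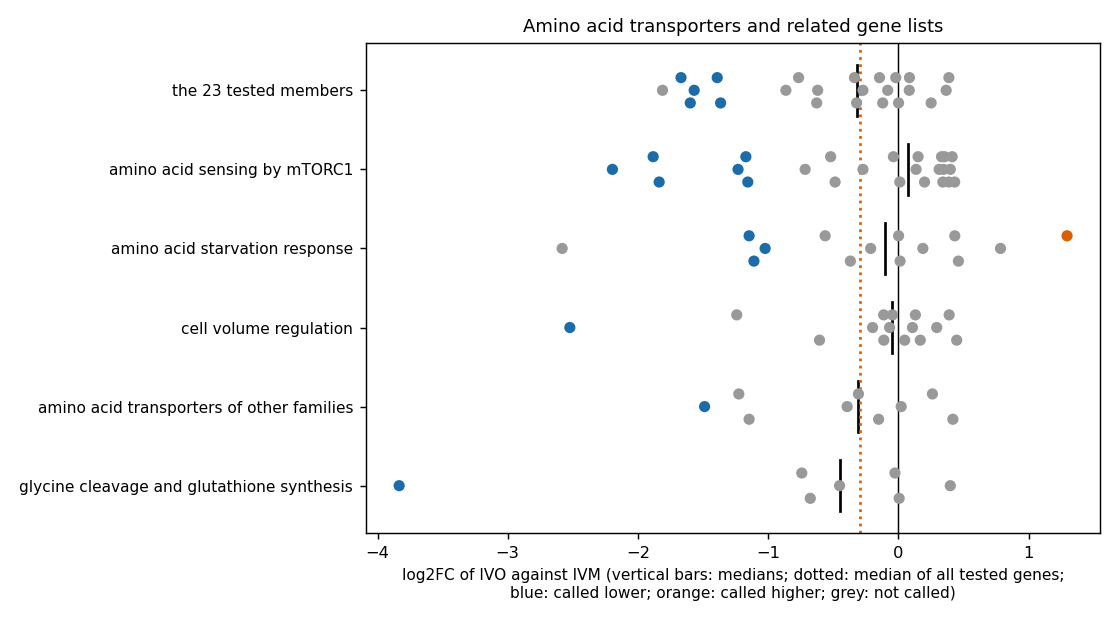
Log2FC of IVO against IVM for the 23 tested members and for the tested genes of 5 related lists, with genes called lower in blue, called higher in orange and not called in grey, a vertical bar at the median of each list and a dotted line at the median of all tested genes. The medians lie between -0.45 and 0.07 and calls in the lower direction occur in every list, with 1 call in the higher direction, Eif2s1.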

How the data were processed

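The 6 samples were pools of oocytes, 3 IVM and 3 IVO, grouped by their titles, and nothing in the sources ties a replicate number to a shared animal or day. Per the labels and the Methods, the authors used SMART-Seq v4 for full-length cDNA and Nextera XT for the libraries, cleaned the read pairs (SeqPrep, Sickle), aligned them with HISAT2 2.1.0 to GRCm39 and deposited FPKM values from RSEM 1.3.3. The authors ran DESeq2 1.24.0 on counts, which were not used here. The annotation release and the strand setting are not given in the sources used here.

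The deposited FPKM values were used without further scaling. Genes with a mean of at least 1 FPKM were tested with limma 3.58.1 (lmFit, eBayes with trend) in R 4.3.3 on log2(FPKM + 1), two-sided, with Benjamini-Hochberg adjustment over all 18818 tested genes, since exact permutation of 3 against 3 samples gives no p-value below 0.1. The thresholds were those of the Methods. Medians, counts and sums over lists are descriptions with no test. Depth was inferred from the steps of low FPKM values of 13829 genes with 1 transcript of 500 to 4000 bases: 60.2% to 63.9% of values worth at most 5.5 fragments lay within 0.1 of a whole number. Positions, exon overlaps and 3′ ends came from GENCODE on GRCm39, read in Python 3.11.15 (numpy 2.4.6, pandas 2.3.3). The test was checked on simulated data, in which 200 of 18818 genes were given a change. Of these, 113 (56.5%) were called, as were 8 unchanged genes, so a gene that was not called may still differ.

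The genes and the lists were chosen with earlier results of these data known, and the list of genes used by most cells after values were seen. Named in the text are Slc6a9 and every tested member, with all samples' values for called and abundant members, and the called genes of each list, up to 3 in a direction in full; other genes are given by counts or, where singled out, were chosen after their values were seen. Alternatives covered the pseudocount, the filter, the scaling, the variance model, a replicate block, the trend with gene length, assembled loci and each sample in turn. Columns of group means were not used.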

Additional observations from a re-analysis of the deposited data

How the results depend on the processing

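The 5 members lower in IVO became 1 with no filter on low values, 3 with quantile normalization and 1 with the length trend removed together with the replicate block, where 1.72%, 8.40% and 3.94% of all genes were lower, and 4 to 6 when a sample was left out. No setting called a member higher, over 60193 genes without the filter or over the 18818 tested genes. With no filter the median log2FC was -0.0095, taken over all 67 members, while the log2FC of each of the 23 tested members stayed the same. Over the 23 tested members the median was -0.0613 with median-ratio scaling, 0.154 with quantile normalization and -0.0552 with equal sums. It was -0.124 with the length trend removed, with or without the block, and -0.391 to -0.207 without a sample. Among the fits without a sample, that without IVO sample 2 moved it most. Slc6a9, at -0.12 with FPKM as deposited, turned to 0.0929 with median-ratio scaling, 0.329 with quantile normalization, 0.111 with equal sums and 0.0727 with the length trend removed, with or without the block, and ran from -0.398 to 0.133 without a sample. It was called in none of these fits.

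Members that were not called also changed sign. With median-ratio scaling the log2FC was 0.0437 in Slc38a6, 0.168 in Slc6a20b, 0.128 in Slc6a14 and 0.297 in Slc7a11. With equal sums these were 0.0556, 0.181, 0.136 and 0.308, and with quantile normalization 0.191, 0.338, 0.348 and 0.438, besides 0.15 in Slc3a1 and 0.154 in Slc7a5. With the length trend removed, with or without the block, Slc6a20b had 0.0462, Slc6a14 0.116 and Slc7a11 0.190. Without a sample, Slc7a11 ran from -0.114 to 0.113, Slc6a20a from -0.16 to 0.133, Slc7a1 from -0.177 to 0.335 and Slc3a2 from -0.0619 to 0.175. The cause of these changes was not tested.

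Samples of the same replicate number did not deviate together over all tested genes (r of -0.0618, -0.0176 and -0.107). Between samples of other numbers r was -0.0227 to 0.0809. No pairing by number was thus seen, and a shared day or animal was not tested. With the replicate block 5 members were lower, and over all genes 2899 were lower and 92 higher. Over the settings, the genes called lower numbered 1 to 6 for mTORC1 sensing, 0 to 3 for the starvation response, 0 to 2 each for cell volume, for glycine and glutathione and for other transporters, 0 to 1 of the cumulus and granulosa cell markers, 4 to 7 of the oocyte markers and 1 to 4 of the genes used by most cells, against 4 of 25 with FPKM as deposited. Without the filter, all 60193 listed genes enter the adjustment. Slc38a11 was called in every setting, and Slc7a7 and Slc6a4 in 14 of 16. Depth limits the members below 1 FPKM most, where few fragments stand behind a value.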
